A study of Mus musculus with 5 samples.

Results

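Proliferating CD8+ T cells were examined in 4T1 mammary tumors that were labelled sensitive or resistant to doxorubicin (DOX). They were picked out of 2 droplet single-cell RNA sequencing libraries of tumor T cells, in which each transcript captured from a cell is counted once by a unique molecular identifier (UMI). A barcode was kept if 500 genes or more were detected in it and no more than 10% of its UMIs were mitochondrial. A member had at least 1 UMI of Cd3d, Cd3e or Cd3g, at least 1 of Cd8a or Cd8b1, none of Cd4, and UMIs of at least 2 of 5 cell cycle genes (Mki67, Top2a, Birc5, Ccna2 and Ube2c). The rule took 110 of 1413 CD8+ cells from sensitive tumors and 242 of 1731 from resistant tumors, or 352 of 6810 kept cells and of 11119 barcodes in the 5 libraries of the series. The remaining 1303 and 1489 CD8+ cells, with UMIs of 1 or none of the 5 genes, are called other CD8+ cells.

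Both groups were female BALB/c mice that carried 4T1 cells, a mouse line used as a model of triple-negative breast cancer, in the mammary fat pad. Their age was 12 weeks in the sample labels and 8 to 10 weeks in the treatment text. Both groups received 3 intravenous doses of DOX at 5 mg/kg with 3 days between doses, so neither T cell library came from untreated tumors. T cells were enriched on magnetic columns that held back other immune cells and CD90.1+ cancer cells, and per the study's methods T cells of 3 tumors from separate experiments were pooled for sequencing. There was 1 library in a group and no replicate, so no test was possible, and mouse, pool, library and response cannot be told apart. Brackets give 95% intervals, which cover counting error only (Clopper-Pearson for a share).

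A dividing T cell copies its DNA in S phase and separates the copies in mitosis. Genes for nucleotide supply and the replication fork, many of them driven by E2F factors, come on first, and genes for mitotic kinases, the kinetochore and the spindle follow, many of them held back in resting cells by the DREAM complex at promoter elements called CHR. In tumors, CD8+ T cells that meet their antigen divide and can go on to produce granzymes, perforin and interferon gamma, and their continued stimulation is marked by receptors such as PD-1 (Pdcd1) and TIM-3 (Havcr2). DOX poisons topoisomerase II, whose alpha form Top2a is found mostly in dividing cells.

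The label was first compared with T cell and cycle genes that the rule had not used. Trac, the constant chain of the alpha beta T cell receptor, had a UMI in 91.8% of sensitive and 92.1% of resistant members, and the surface protein gene Thy1 had one in 99.1% and 98.8%. Cdk1, the kinase that starts mitosis, was seen in 53.6% of sensitive members against 1.23% of the other CD8+ cells, and in 59.1% against 2.82% in the resistant library. Stmn1, which destabilizes microtubules, was seen in 85.5% and 88.4% of members against 7.37% and 12.0% of other CD8+ cells. Of the gamma delta markers, Trdc and Trdv4 were at 0 in the members of both libraries, and Tcrg-C1 had a UMI in 8 of 110 sensitive (7.27%) and 18 of 242 resistant members (7.44%). Foxp3, the factor of regulatory T cells, had a UMI in 5 of 110 sensitive members and in 0 of 242 resistant members, which allows a share of cells with a UMI of up to 1.24% and sets no limit on cells that express the gene. Members thus carried alpha beta T cell genes and cycling genes beyond those of the rule.

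Markers of cells other than T cells were also present. Markers were listed for cancer, fibroblast, macrophage, dendritic, neutrophil, B, endothelial, mast, red and NK cells. At least 1 UMI of these lists was held by 47 sensitive and 116 resistant members. Of the members, 11 (10.0%) and 17 (7.02%) had 5 or more from a single list. Among other CD8+ cells, 435 of 1303 and 580 of 1489 held at least 1, and 5.37% and 7.72% had 5 or more. Putative doublets, barcodes scored as likely to hold more than 1 cell, were more frequent in members. They made up 8.18% of sensitive and 7.02% of resistant members, against 2.46% and 4.43% of other CD8+ cells. The fibroblast list (Col1a1, Col1a2, Col3a1 and Dcn) summed to 1452 CPM (UMIs per 1000000 UMIs of the cells summed) in sensitive and 1035 CPM in resistant members, against 1824 and 2435 CPM in other CD8+ cells, with all 4 genes detected in each. The cancer list (Epcam, Krt8, Krt18, Krt7 and Cldn4) summed to 273 and 50.6 CPM in members, against 34.7 and 72.0 CPM in other CD8+ cells, and 343 of the 376 UMIs of sensitive members lay in 1 cell. The macrophage list (Csf1r, C1qa, C1qb, Lyz2 and Adgre1) summed to 23.96 and 139 CPM, against 315 and 328 CPM in other CD8+ cells, with C1qb and Adgre1 at 0 in sensitive members, and 32 of 33 sensitive and 343 of 404 resistant UMIs lay in 1 cell each. The neutrophil list (S100a8, S100a9 and Csf3r) summed to 330.4 and 89.1 CPM, against 132 and 638 CPM in other CD8+ cells, with 369 of 455 sensitive and 134 of 259 resistant UMIs in 1 cell each. Red cell markers were at 0 in members of both libraries. The part of such cells in the results below was not tested, and values without the cells that held 5 or more such UMIs are given where they end a call of more than 1.5-fold or move a described value beyond its interval. Members held 1377189 and 2907052 UMIs in all, with medians per cell of 9443.5 (sensitive) and 10003 (resistant), and other CD8+ cells had medians of 3993 and 4459. Mitochondrial UMIs made up a median of 2.24% and 4.04% in members. The libraries had 31 barcodes in common, carried by 1 sensitive and 2 resistant members.

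The first comparison asked what part of the CD8+ cells was dividing in each tumor type. Proliferating cells made up a smaller share of CD8+ cells in the sensitive than in the resistant library. Every cell was thinned at random to 1000 UMIs, so that depth was equal, and 11 and 4 shallower CD8+ cells were left out. The Cd3, Cd8, Cd4 and cycle gene parts of the rule were applied to the thinned counts. The limits on gene number and mitochondrial share used the full counts. Of 1331 sensitive CD8+ cells 40 passed the gate, or 3.01% (2.16 to 4.07), and 82 of 1561 resistant cells passed, or 5.25% (4.20 to 6.48). The ratio of shares was 0.572 (0.395 to 0.829). Without thinning the shares were 7.78% (6.44 to 9.31) and 13.98% (12.4 to 15.7), a ratio of 0.557 (0.450 to 0.690). Because the rule used these genes, the shares are a description of what the rule found.

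The lower share in the sensitive library was seen at each number of cycle genes. UMIs of all 5 genes were found in 45 sensitive CD8+ cells, or 3.18% (2.33 to 4.24), and in 103 resistant ones, or 5.95% (4.88 to 7.17). Just inside the threshold, 32 sensitive (2.26%) and 68 resistant cells (3.93%) had 2 of the 5 genes. Just outside it, 221 (15.6%) and 322 cells (18.6%) had 1. Cells with all 5 genes were therefore the largest class of members in both libraries, and their median depth was 12712 and 12484 UMIs. Among members, Mki67 had a UMI in 99 of 110 sensitive and 212 of 242 resistant cells, Top2a in 80.9% and 85.1%, Birc5 in 72.7% and 75.6%, Ube2c in 68.2% in both libraries and Ccna2 in 57.3% and 54.5%.

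**Figure D1:**
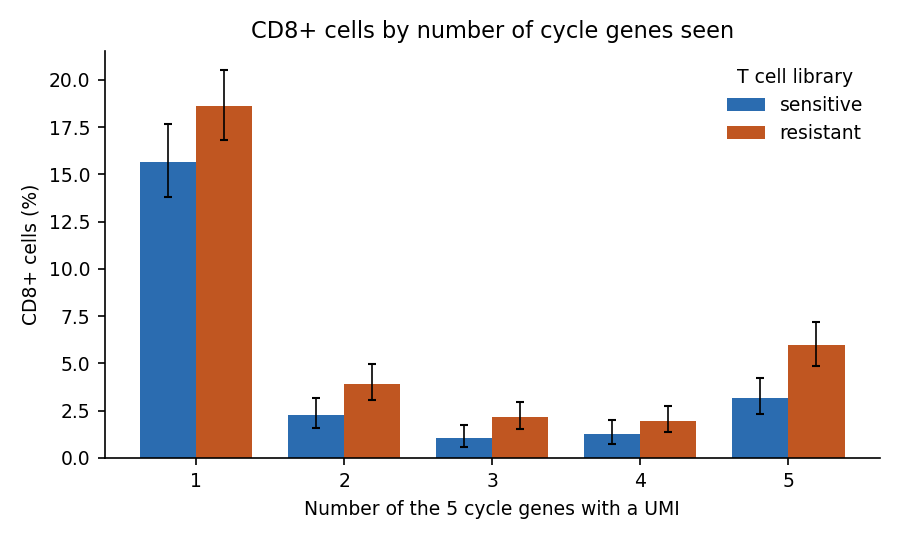
Share of CD8+ cells (%, y axis) with a UMI of 1 to 5 of the cycle genes Mki67, Top2a, Birc5, Ccna2 and Ube2c (x axis) in the sensitive and resistant T cell libraries, without thinning. Bars start at 0 and error bars are Clopper-Pearson 95% intervals; the resistant bar is the higher at each number, with 5.95% against 3.18% for all 5 genes.

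The same count of cycle genes was taken in cells that should not divide. Neutrophils, which are mature cells that have left the cycle, had UMIs of at least 2 of the 5 genes in 2 of 116 sensitive (1.72%) and 1 of 141 resistant cells (0.709%), at median depths of 2303 and 2631 UMIs. After thinning these were 1 of 116 (0.862%) and 1 of 141 (0.709%). CD8+ cells named before thinning stood at 43 of 1402 (3.07%) and 97 of 1727 (5.62%). Without thinning, CD4+ T cells passed in 12 of 215 sensitive cells, or 5.58% (2.92 to 9.55), and in 6 of 56 resistant cells, or 10.7% (4.03 to 21.9), intervals that overlap. Cells with no Cd3 UMI, which include cancer cells and fibroblasts, passed in 6.15% and 7.26%.

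The ratio of shares lay below 1 in each of the 12 alternatives, from 0.355 to 0.734. It was 0.355 (0.238 to 0.529) with a mitochondrial limit of 5%, and 0.723 (0.501 to 1.04) with a limit of 20%, where the interval reaches 1. The limit touched the libraries unequally, since 859 CD8+ barcodes of the resistant library and 27 of the sensitive one exceeded 10%. Without the CD8+ cells that held any UMI of another cell type's markers the ratio was 0.695 (0.437 to 1.11), an interval that also reaches 1.

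**Figure D2:**
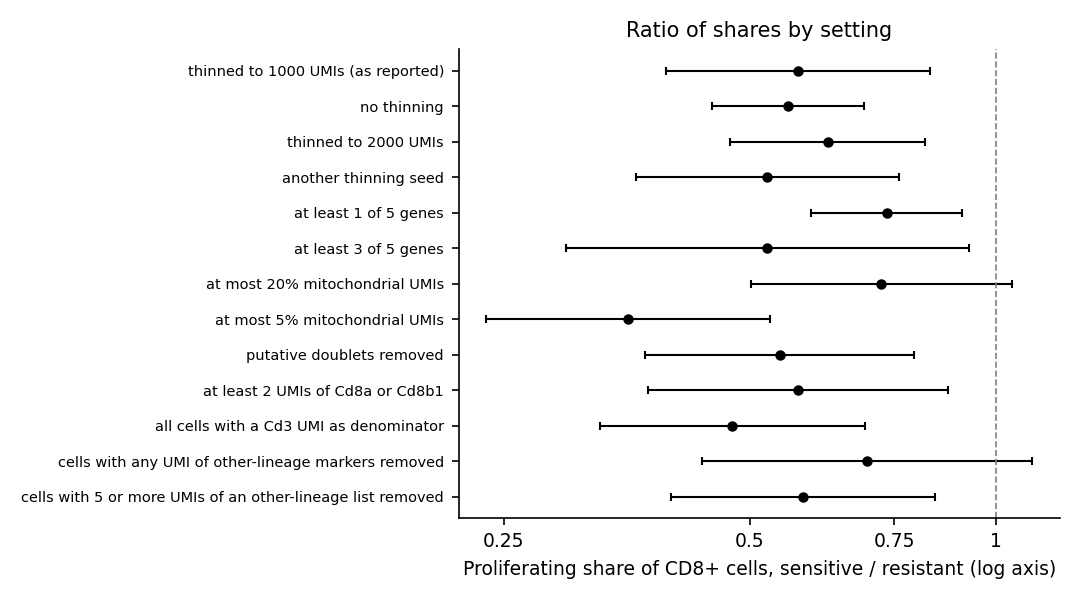
Sensitive over resistant ratio of the proliferating share of CD8+ cells (x axis, log scale) under the setting reported and 12 alternatives (y axis); points are ratios and bars are 95% intervals from counts. All points lie below 1, from 0.355 to 0.734, and the bars for the 20% mitochondrial limit and for removal of cells with any UMI of another cell type's markers cross 1.

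To describe what else set members apart, UMIs were summed over the members and over the other CD8+ cells of each library and scaled to CPM. All values in this comparison are descriptive, since members were chosen on genes of the same cells. Of 7005 genes with at least 50 UMIs over the members of both libraries, 784 (11.2%) were more than 1.5-fold higher in members in both libraries and 347 (4.95%) were more than 1.5-fold lower in both. Where other CD8+ cells had 0 UMIs of a gene, the ratio was taken against 3 UMIs in that library's other CD8+ cells and is a lower bound. The median ratio of all 7005 genes was 1.01 in both libraries.

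Every gene of the 5 cycle lists passed the filter and was more than 1.5-fold higher in members in both libraries. These were 24 of 24 genes for replication licensing and the fork, 12 of 12 for nucleotide supply, 18 of 18 for mitotic kinases, cyclins and the checkpoint, 18 of 18 for the kinetochore and spindle and 13 of 13 for chromatin of cycling cells. Ratios were higher for the mitosis lists than for the replication lists. The rule builds this in, at least in part, since most of its 5 genes peak in G2 and mitosis and replicating cells with 1 of them count among the other CD8+ cells, so nothing is read from it. The median ratio was 55.0 in sensitive and 39.98 in resistant cells for the mitotic kinase list and 47.8 and 35.0 for the kinetochore list. It was 5.54 and 3.99 for the replication list and 5.25 and 3.68 for nucleotide supply. Pcna, the clamp that holds DNA polymerase, was at 243 and 244 CPM in members and at 80.5 and 83.9 CPM in other CD8+ cells, a ratio of 3.02 and 2.91. Ccnb2, a cyclin of mitosis, was at 195 and 194 CPM in members and at 0.486 and 2.55 CPM in the others, from 3 and 21 UMIs. The ratios were 401 (136 to 1954) and 75.9 (49.2 to 124), and the size of the sensitive one rests on those 3 UMIs. Genes outside the lists were ranked if other CD8+ cells of both libraries held UMIs of them. Those with the highest ratio in both libraries were Esco2, Sgo1, Mxd3, Cdca3, Aspm, Kif4, Pbk, Cdca5, Shcbp1 and Pclaf. Esco2 joins sister chromatids, Sgo1 protects their bond and Kif4 is a chromosome motor. The lower ratio of the libraries for these genes ran from 46.9 (38.6 to 57.5) for Pclaf, a partner of Pcna, to 142 (54.4 to 525) for Esco2. Those intervals overlap, so the order is not resolved. Other CD8+ cells held only 1 and 4 UMIs of Esco2 and 1 and 2 of Sgo1.

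**Figure D3:**
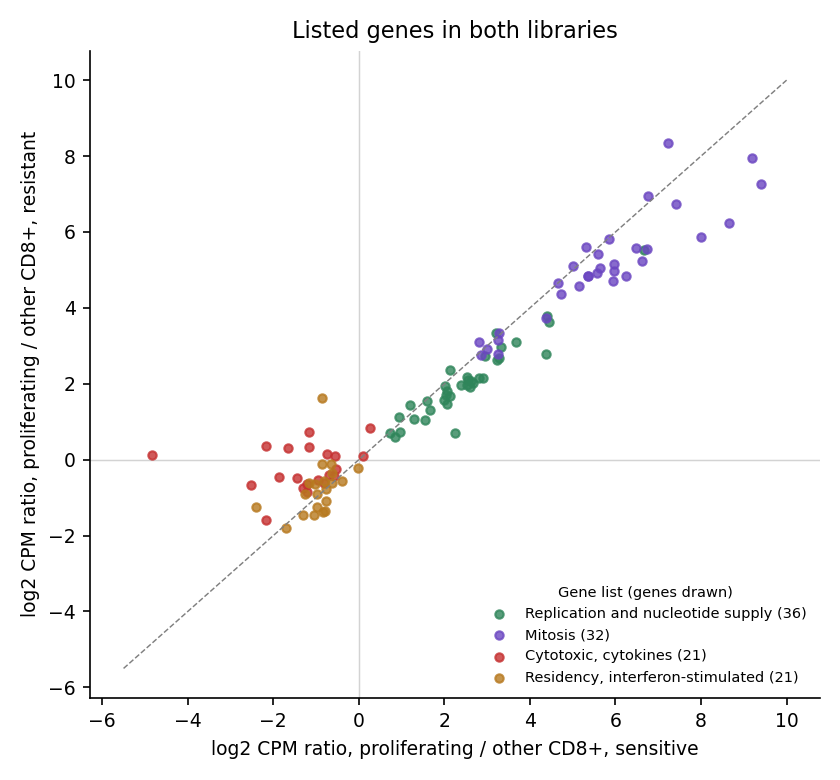
CPM ratio of proliferating over other CD8+ cells (log2) in the sensitive library (x axis) and the resistant library (y axis), 1 point per listed gene with at least 50 UMIs in members and UMIs in the other CD8+ cells of both libraries. The dashed line marks equal ratios; mitosis genes lie farthest up, replication genes in between, and most residency and interferon-stimulated genes lie below 0 in both libraries.

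The promoters of the listed genes were read for the letters of CHR, CCAAT and E2F elements, which the rule had not used. Sequences were those of RefSeq (GRCm38.p6), from 250 bases before to 50 after each start, and 30 of 36 genes of the mitosis lists (31 windows) and 30 of 36 genes of the replication and nucleotide lists (36 windows) had at least 1. CHR was searched as TTTGAA or as TTCGAA, and the CCAAT box by those letters. E2F was searched as TTTGGCGC, TTTCCCGC, TTTCGCGC or TTTGCCGC. All were read on both strands, with overlapping matches counted. CHR letters were in 22 of 31 mitosis windows (71.0%), in 6 of 36 replication windows (16.7%) and in 19.2% of all 32851 windows. CCAAT letters were in 24 of 31 mitosis windows (77.4%), in 18 of 36 replication windows and in 37.4% of all. E2F letters were in 1 mitosis window (3.23%), in 13 replication windows (36.1%) and in 2.26% of all. A match is a run of letters in this window, not a measured binding site.

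The promoters below show how these letters lie in 3 genes of the rule itself (Top2a, Ube2c and Mki67, which are in none of the lists counted above), in 1 gene of the mitosis lists (Cdk1) and in 1 of the replication list (Mcm6), with CHR, CCAAT and E2F letters in capitals. Top2a (chr11:99024140-99024439, minus strand) encodes topoisomerase II alpha, Ube2c (chr2:164769679-164769978, plus strand) hands ubiquitin to mitotic cyclins, Mki67 (chr7:135716330-135716629, minus strand) coats mitotic chromosomes, Cdk1 (chr10:69352863-69353162, minus strand) is the mitotic kinase and Mcm6 (chr1:128359656-128359955, minus strand) is a subunit of the replicative helicase.
Top2a: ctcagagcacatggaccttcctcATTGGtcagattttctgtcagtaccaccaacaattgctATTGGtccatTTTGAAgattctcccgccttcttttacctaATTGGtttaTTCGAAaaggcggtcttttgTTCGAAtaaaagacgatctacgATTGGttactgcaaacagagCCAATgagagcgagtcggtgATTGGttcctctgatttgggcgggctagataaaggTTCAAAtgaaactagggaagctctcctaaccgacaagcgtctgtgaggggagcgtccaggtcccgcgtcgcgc
Ube2c: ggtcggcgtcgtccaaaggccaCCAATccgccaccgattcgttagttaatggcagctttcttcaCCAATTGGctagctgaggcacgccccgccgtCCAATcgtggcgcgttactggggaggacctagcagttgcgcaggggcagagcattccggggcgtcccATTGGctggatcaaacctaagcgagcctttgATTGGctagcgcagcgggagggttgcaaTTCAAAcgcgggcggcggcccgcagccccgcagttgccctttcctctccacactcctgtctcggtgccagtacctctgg
Mki67: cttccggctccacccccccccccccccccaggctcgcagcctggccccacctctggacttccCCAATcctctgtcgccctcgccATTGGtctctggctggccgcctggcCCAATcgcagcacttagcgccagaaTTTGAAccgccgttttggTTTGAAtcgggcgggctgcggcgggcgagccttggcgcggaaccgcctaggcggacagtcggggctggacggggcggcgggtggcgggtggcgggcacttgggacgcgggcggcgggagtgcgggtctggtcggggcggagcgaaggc
Cdk1: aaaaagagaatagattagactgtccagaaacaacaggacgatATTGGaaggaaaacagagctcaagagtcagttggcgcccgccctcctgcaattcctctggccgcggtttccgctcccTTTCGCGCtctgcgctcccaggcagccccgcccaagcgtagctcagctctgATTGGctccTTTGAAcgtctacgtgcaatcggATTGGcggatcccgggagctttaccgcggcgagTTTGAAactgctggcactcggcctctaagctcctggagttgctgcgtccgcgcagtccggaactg
Mcm6: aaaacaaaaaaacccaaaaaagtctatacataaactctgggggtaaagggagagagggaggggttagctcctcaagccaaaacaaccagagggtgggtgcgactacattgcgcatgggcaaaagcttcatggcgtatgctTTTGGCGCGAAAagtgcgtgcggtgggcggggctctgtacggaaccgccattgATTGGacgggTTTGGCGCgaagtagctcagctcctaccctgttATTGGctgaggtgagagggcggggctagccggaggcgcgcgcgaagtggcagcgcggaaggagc
The Top2a window held 4 CHR and 6 CCAAT matches and no E2F match. The Ube2c window held 1 CHR and 6 CCAAT matches, of which a pair overlaps on opposite strands, and the Mki67 window held 2 CHR and 3 CCAAT matches. The Cdk1 window held 2 CHR, 3 CCAAT and 1 E2F match. The Mcm6 window held no CHR match, 2 CCAAT and 3 E2F matches, of which a pair overlaps on opposite strands. In the cells, Mcm6 was 4.18-fold and 2.75-fold higher in members than in other CD8+ cells of the sensitive and resistant library, and Cdk1 75.7-fold and 28.6-fold.

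The balance of replication and mitosis transcripts was then compared, as a measure of where in the cycle members stood. Sensitive members held 5979 UMIs of the replication and nucleotide lists and 6164 of both mitosis lists, a ratio of 0.970. Resistant members held 10401 and 11940, a ratio of 0.871. The sensitive balance was thus 1.11-fold (1.08 to 1.15) that of the resistant members. Without cells that held 5 or more UMIs of another cell type's list it was 1.24-fold, and from the mean over cells of each cell's replication share (52.2% and 49.9%, in cells with at least 10 such UMIs) it was 1.10-fold. In those cells the median replication share was 53.8% in 100 sensitive and 51.3% in 220 resistant members. Single cells spanned the whole range in both libraries, from 0% to 95.8% and from 0% to 96.0%.

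Cells with 2 of the 5 cycle genes leaned more to replication than cells with all 5. In sensitive members with 2, 3, 4 and 5 genes the median replication share was 88.0%, 67.6%, 31.9% and 47.1%, so that the 18 cells with 4 genes lay below those with 5. In resistant members it was 84.4%, 68.2%, 53.1% and 37.2%. The cells just outside the gate, with 1 of the 5 genes, had medians of 86.0% and 85.7% in the 48 and 105 cells with at least 10 such UMIs. Most of the 5 rule genes peak in G2 and mitosis, so these differences follow in part from the rule.

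**Figure D4:**
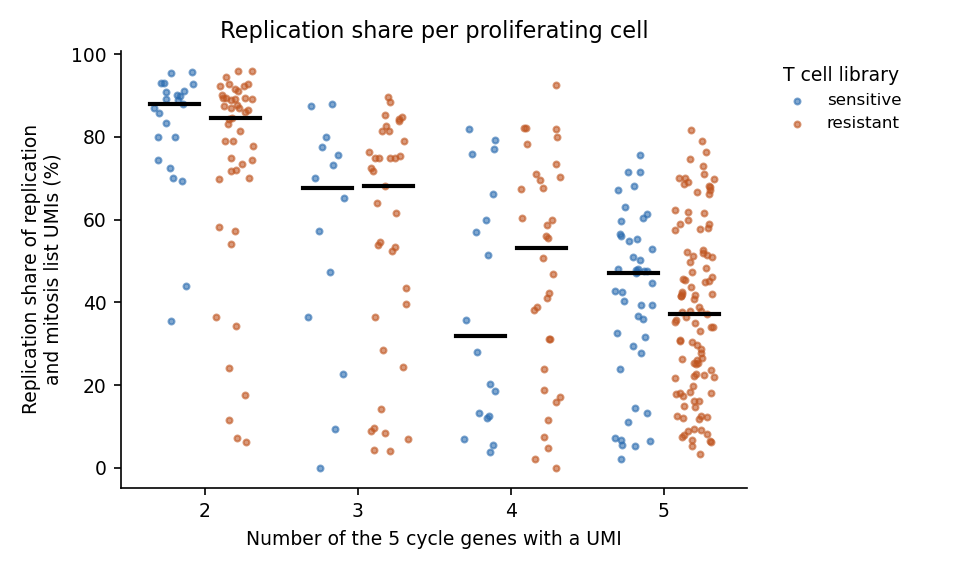
Share of replication and nucleotide list UMIs among those of the replication and mitosis lists (%, y axis) per proliferating CD8+ cell with at least 10 such UMIs, by number of the 5 cycle genes seen (x axis) and T cell library. Points are cells, not replicates, and black lines are medians, which were 88.0% (sensitive) and 84.4% (resistant) at 2 genes and 47.1% and 37.2% at 5 genes, with the sensitive median lowest at 4 genes (31.9%).

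Next, each gene was compared between sensitive and resistant members. Of the 7005 genes, 688 (9.82%) were more than 1.5-fold higher in sensitive members and 291 (4.15%) were more than 1.5-fold higher in resistant ones. The median ratio of all genes was 1.09, or 0.12 on the log2 scale, and with values scaled to that median the counts were 420 and 452. In other CD8+ cells, with 10051 genes at 50 UMIs or more, 6.4% were past 1.5-fold toward sensitive and 5.82% toward resistant. The members' counts in each list below are read beside these shares.

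Most genes of the cell cycle itself lay within 1.5-fold between the libraries. Of the 85 genes in the 5 cycle lists, 8 were past 1.5-fold higher in sensitive members and none in resistant ones. Those 8 were Mcm6, Rrm2, Impdh2, Ctps, Plk1, Aurka, Kif11 and Kif20a. With values scaled to the median gene ratio, 3 cycle genes were past 1.5-fold. Without cells that held 5 or more UMIs of another cell type's list 5 were, with Plk1 at 1.43, Aurka at 1.497 and Kif20a at 1.273 no longer past it. As a mean over cells of each cell's CPM, 2 were higher in sensitive members (Ctps and Kif20a) and 1 in resistant ones (Cdc45, a part of the replicative helicase), and without cells that held any UMI of another cell type's markers the counts were 12 and 0. Median ratios were 1.21 for replication, 1.22 for nucleotide supply, 1.13 for mitotic kinases, 1.07 for the kinetochore and 1.03 for chromatin, against 1.09 for all genes. Rrm2, the S phase subunit of ribonucleotide reductase, was at 281 CPM in sensitive and 178 CPM in resistant members, a ratio of 1.58 (1.38 to 1.81), and was seen in 58 and 129 cells. Ctps, which makes CTP, was at 39.9 and 18.9 CPM (ratio 2.11, 1.43 to 3.12). Plk1, a mitotic kinase, was at 95.1 and 59.9 CPM (1.59, 1.26 to 2.01), but as a mean over cells of each cell's CPM its ratio was 1.19. Hmgb2, a chromatin protein among the most abundant cycle transcripts, was at 2072 and 2232 CPM (0.93, 0.89 to 0.97).

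Most genes of the damage response lay within 1.5-fold as well. Top2b, the DOX target found in dividing and resting cells, was at 105 CPM in sensitive and 94.9 CPM in resistant members (1.11, 0.90 to 1.36). Top2a is a gene of the rule, so its level in members, 492 and 465 CPM, is given as a description. Of 18 listed p53 targets 11 passed the filter and none was past 1.5-fold in either direction, with a median of 0.90. That count changed with the setting, to 2 higher in sensitive members as a mean over cells or with at least 3 of the 5 cycle genes, and to 3 in each direction without cells that held any UMI of another cell type's markers, and the median ran from 0.83 to 0.998. Ccng1 was at 84.2 and 114 CPM (0.74, 0.59 to 0.91). Of 16 DNA repair genes 11 passed the filter, 1 was past 1.5-fold higher in sensitive members (Brca2, with 39 and 54 UMIs) and none was higher in resistant ones, against none and 2 with at least 3 of the 5 cycle genes or scaled to the median gene ratio. In members over other CD8+ cells, 8 of the 11 repair genes were past 1.5-fold higher in both libraries.

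Some genes that open or block the cycle were past 1.5-fold, in either direction. Of 14 G1 genes that passed the filter, 3 were past 1.5-fold higher in sensitive and 1 in resistant members. Myc, a growth factor target that drives cell growth, was at 102 and 50.6 CPM (2.02, 1.60 to 2.57), and at a ratio of 1.17 without cells that held any UMI of another cell type's markers. Ccnd1, a cyclin of G1, had a ratio of 5.55, but 91 of its 100 sensitive UMIs came from 1 cell, and without the highest cell of each library the ratio was 0.68, and without cells that held 5 or more UMIs of another cell type's list it was 2.11. Of 11 CDK inhibitor and quiescence genes, 2 were past 1.5-fold higher in sensitive and 1 in resistant members. Cdkn1a (p21) was at 138 and 92.9 CPM in members (1.49, 1.23 to 1.79) and at 99.0 and 145 CPM in other CD8+ cells (0.68, 0.62 to 0.75), and the members' ratio ran from 1.10 with putative doublets removed to 1.87 as a mean over cells, on both sides of 1.5-fold. Cdkn2b (p15) was at 4.36 and 15.1 CPM (0.29, 0.10 to 0.68), from 6 and 44 UMIs. With values scaled to the median gene ratio Cdkn1a was at 1.36. Foxo1, which keeps T cells quiescent, was at 50.8 and 26.1 CPM (1.94, 1.38 to 2.73), and at a ratio of 1.97 in other CD8+ cells.

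Among cytotoxic genes, Gzmb and Prf1 had ratios below 1 in members and above 1 in other CD8+ cells. Gzma and the summed granzymes C to G were below 1 in both cell groups, and Gzmk was above 1 in both. Of 14 listed genes 12 passed the filter. In members, 6 were past 1.5-fold higher in the resistant library (Gzma, Gzmb, Gzmc, Gzmd, Gzme and Gzmf) and 1 in the sensitive library (Gzmk), with a median ratio of 0.66. In other CD8+ cells the median of the same 12 genes was 1.30. These counts take Gzmc, Gzmd, Gzme and Gzmf as separate genes, although reads of granzymes C to G cannot be assigned with confidence between them. With that cluster summed as 1 gene there were 9 genes, of which 3 were higher in resistant members (Gzma, Gzmb and the cluster) and 1 in sensitive ones, and the median was 1.06, on the other side of 1, against 1.35 in other CD8+ cells. As a mean over cells of each cell's CPM, the members' median was 0.94, with 5 genes higher in the resistant and 2 in the sensitive library.

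Gzmb, granzyme B, is a protease that kills target cells. It was at 487 CPM in sensitive and 840 CPM in resistant members (0.58, 0.53 to 0.63), whereas in other CD8+ cells it was at 1536 and 679 CPM, a ratio of 2.26 (2.19 to 2.34). Within the sensitive library members thus had 0.317-fold the level of other CD8+ cells, and within the resistant library 1.24-fold (1.18 to 1.30). The resistant value rested in part on 1 cell with 457 of the 2443 UMIs. Without that cell it was 1.02 (0.970 to 1.08), and without the highest cell of both members and other CD8+ cells it was 1.10 (1.04 to 1.16), where the sensitive value was 0.297. Of the 7005 genes, 53 (0.757%) had ratios of members over other CD8+ cells on opposite sides of 1 in the libraries with both intervals clear of 1. A UMI was found in 56 of 110 and 123 of 242 members. Without the highest cell of each library the members' ratio was 0.64. It was not past 1.5-fold as a mean over cells (0.80) or with at least 3 of the 5 cycle genes (0.75). With each cell thinned to 2000 UMIs, Gzmb was seen in sensitive members at 28.7% (20.4 to 38.2) and in resistant members at 34.0% (28.1 to 40.4), and in 43.5% and 30.7% of other CD8+ cells.

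Prf1, the pore former perforin, was at 123 and 165 CPM in members (0.75, 0.62 to 0.89) and at 277 and 131 CPM in other CD8+ cells (a ratio of 2.11). As a mean over cells the members' ratio was 1.17, and without cells that held any UMI of another cell type's markers it was 1.06, both on the other side of 1. Gzmk, a granzyme of memory-like cells, was higher in the sensitive library in members (163 and 97.7 CPM; 1.66, 1.39 to 1.99) and in other CD8+ cells (2.63, 2.41 to 2.87). Gzma was at 325 and 946 CPM in members (0.34, 0.31 to 0.38), yet 386 of 448 sensitive UMIs and 791 of 2750 resistant UMIs lay in 1 cell each, and without those cells the ratio was 0.067. Without cells that held 5 or more UMIs of another cell type's list it was 0.40. Nkg7, a granule protein gene seen in 109 of 110 and 240 of 242 members, was at 2223 and 1992 CPM (1.12, 1.07 to 1.17).

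Granzymes C to G, a cluster of near-identical genes whose reads cannot be assigned with confidence, were summed. Members held 96 UMIs (69.7 CPM) in the sensitive and 1790 UMIs (616 CPM) in the resistant library (0.113, 0.0912 to 0.139). In members without any UMI of another cell type's markers 12 and 843 UMIs were left, a ratio of 0.0262 (0.0135 to 0.0459), and in members with at least 3 of the 5 cycle genes the ratio was 0.146 (0.115 to 0.184). Other CD8+ cells were at 269 and 739 CPM, a ratio of 0.364 (0.344 to 0.384). The UMIs were held by few cells, and thinned to 2000 UMIs a UMI of the cluster was seen in 9 of 108 sensitive members, or 8.33% (3.88 to 15.2), and in 27 of 241 resistant members, or 11.2% (7.51 to 15.9). Those intervals overlap, so no difference in the share of members with the cluster could be told at this depth. In Gzmc alone, 481 of 886 resistant UMIs lay in 1 cell. Its ratio was 0.091, and ran from 0.052 without cells that held 5 or more UMIs of another cell type's list to 0.14 as a mean over cells, with 0.13 without the highest cell of each library.

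**Figure D5:**
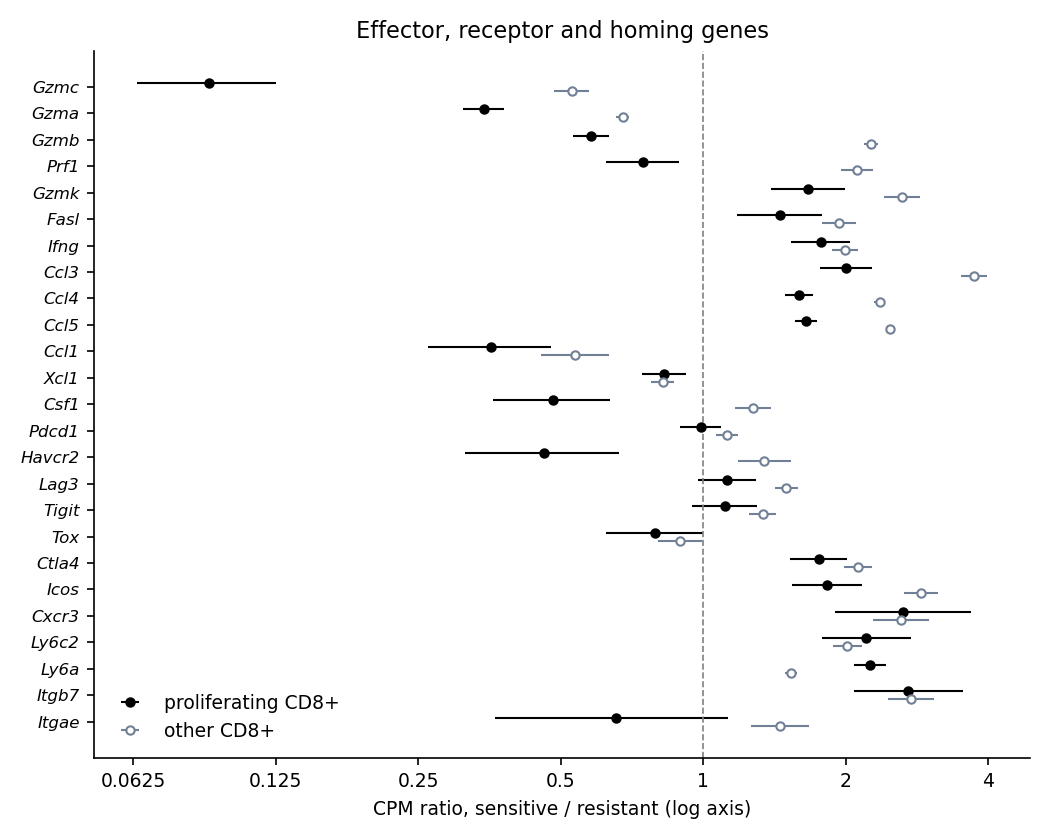
Sensitive over resistant CPM ratio (x axis, log scale) of 25 effector, receptor and homing genes (y axis) in proliferating CD8+ cells (filled) and other CD8+ cells (open); bars are exact conditional 95% intervals from counts. Gzmb, Prf1, Csf1 and Havcr2 lie below 1 in proliferating cells and above 1 in other CD8+ cells, and Cxcr3, Ly6c2, Ly6a and Itgb7 lie above 1 in both.

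Cytokine and chemokine genes were mixed. Of 12 listed, 9 passed the filter, 4 were past 1.5-fold higher in sensitive members (Ifng, Ccl3, Ccl4 and Ccl5) and 3 in resistant ones (Ccl1, Csf1 and Csf2), and without the highest cell of each library these counts were 2 and 4. Ifng, interferon gamma, was at 262 and 148 CPM in members (1.77, 1.54 to 2.04) and at 395 and 198 CPM in other CD8+ cells (1.99, 1.87 to 2.12). It was seen in 70 of 110 and 132 of 242 members. Ccl3, a chemokine that draws myeloid and T cells, was at 351 and 175 CPM (2.003, 1.76 to 2.27), and other CD8+ cells had a ratio of 3.73. Ccl5 was at 1723 and 1044 CPM (1.65, 1.56 to 1.74), and at a ratio of 1.24 without cells that held 5 or more UMIs of another cell type's list. Csf1, a macrophage growth factor, was at 45.0 and 93.6 CPM in members (0.48, 0.36 to 0.64) and at a ratio of 1.28 in other CD8+ cells, with 102 of 272 resistant UMIs in 1 cell. It was not past 1.5-fold as a mean over cells (0.68) or with at least 3 of the 5 cycle genes (0.71). Xcl1, which draws cross-presenting dendritic cells, was at 343 and 414 CPM (0.83, 0.74 to 0.92), with 234 of 472 sensitive UMIs in 1 cell and a ratio of 0.47 without the highest cells.

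Most inhibitory receptors lay within 1.5-fold, and Havcr2 did not. Of 14 genes that passed the filter, 2 were past 1.5-fold higher in sensitive members (Ctla4 and Nr4a1) and 2 in resistant ones (Havcr2 and Cd200r1), with a median of 1.04. Pdcd1 was at 415 and 420 CPM in members (0.99, 0.89 to 1.09) and at 402 and 358 CPM in other CD8+ cells (1.12, 1.07 to 1.19). Havcr2 was at 26.9 and 58.1 CPM in members (0.46, 0.31 to 0.66), seen in 26 of 110 and 86 of 242 cells with at most 4 and 9 UMIs in 1 cell, and at 79.5 and 59.0 CPM in other CD8+ cells (1.35, 1.19 to 1.53). Across the settings tried, the members' ratio of Havcr2 ran from 0.41 to 0.58. With cells thinned to 2000 UMIs, Pdcd1 and Havcr2 were seen together in 4 of 108 sensitive members, or 3.70% (1.02 to 9.21), and in 18 of 241 resistant ones, or 7.47% (4.49 to 11.5), so the depth cannot separate them. Lag3 was at 219 and 195 CPM (1.12, 0.98 to 1.30). Ctla4 was at 267 and 152 CPM (1.75, 1.52 to 2.02).

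Among costimulatory genes, Cd27 was higher in the sensitive library in other CD8+ cells, while its ratio in members had an interval that reaches 1. Of 13 genes, 2 were past 1.5-fold higher in sensitive members (Icos and Tnfrsf4) and none in resistant ones, with a median of 0.99 in members and 1.33 in other CD8+ cells. Tnfrsf4 was at 1.44 without cells that held 5 or more UMIs of another cell type's list. Icos was at 188 and 103 CPM (1.83, 1.54 to 2.17) and at a ratio of 2.88 in other CD8+ cells. Cd27 was at 71.9 and 87.4 CPM in members (0.82, 0.65 to 1.04) and at 146 and 86.0 CPM in other CD8+ cells (1.70, 1.54 to 1.88). Of 9 genes of naive and stem-like cells only 5 passed the filter, and Tcf7 had 23 and 31 UMIs in members. Among effector transcription factors, 3 of 10 were past 1.5-fold higher in sensitive members and 1 in resistant ones. Tbx21 (T-bet) was at 75.5 and 45.1 CPM (1.68, 1.28 to 2.18) and at a ratio of 1.36 without cells that held any UMI of another cell type's markers, and Eomes was at 20.3 and 27.5 CPM (0.74, 0.46 to 1.15).

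Several homing genes were higher in sensitive members. Of 11 listed genes 10 passed the filter, 6 were past 1.5-fold higher in sensitive members (Cxcr3, Ccr2, Ly6c2, Ly6a and Itgb7 among them) and 1 in resistant ones (Itgae), with medians of 1.70 in members and 1.69 in other CD8+ cells. Without cells that held 5 or more UMIs of another cell type's list, 4 were past 1.5-fold higher in sensitive members, Ccr2 no longer among them, and the median was 1.38. Without cells that held any such UMI the median was 1.23. Cxcr3, the receptor for interferon-induced chemokines, was at 61.7 and 23.4 CPM (2.64, 1.90 to 3.68), and at a ratio of 2.62 in other CD8+ cells. Ly6c2, a marker of memory and effector CD8+ cells, was at 127 and 57.4 CPM (2.21, 1.78 to 2.75). Ly6a (Sca-1) was at 924 and 410 CPM (2.25, 2.08 to 2.44), and at a ratio of 2.61 without cells that held 5 or more UMIs of another cell type's list. Itgb7, an integrin chain, was at 98.0 and 36.1 CPM (2.71, 2.09 to 3.54), with at most 10 and 4 UMIs in 1 cell. Itgae, its CD103 partner on resident cells, was at 13.1 and 19.95 CPM (0.66, 0.36 to 1.13), an interval that reaches 1, and at a ratio of 0.92 with at least 3 of the 5 cycle genes. With cells thinned to 2000 UMIs, Ly6c2 was seen in sensitive members at 19.4% (12.5 to 28.2) and in resistant members at 7.47% (4.49 to 11.5), and in 29.8% and 16.2% of other CD8+ cells. Cxcr3 was seen in 11.1% (5.87 to 18.6) and 3.73% (1.72 to 6.97) of members. In both libraries 7 of the 10 genes were more than 1.5-fold lower in members than in other CD8+ cells.

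Most interferon-stimulated genes were lower in dividing cells than in other CD8+ cells, and Cxcl10 was not in the resistant library. Of 11 genes that passed the filter, 7 were more than 1.5-fold lower in members than in other CD8+ cells in both libraries. Cxcl10, a chemokine induced by interferon, was at 0.549-fold the level of other CD8+ cells in sensitive members and 3.11-fold (2.52 to 3.83) in resistant ones, or 1.67-fold without the highest cell of both cell groups. As a mean over cells of each cell's CPM it was at 0.951-fold in sensitive and 2.77-fold in resistant members. Between members, 4 were past 1.5-fold higher in the sensitive library and 1 (Cxcl10) in the resistant, but without cells that held 5 or more UMIs of another cell type's list Ifit2 alone was past it in the sensitive library. The list's median was 1.35, and 0.95 without cells that held any such UMI. Isg15, an early target of interferon, was at 196 and 187 CPM (1.05, 0.90 to 1.21). Rsad2 (viperin) had 26 and 24 UMIs, from 8 and 10 cells, and a ratio of 1.16 without cells that held 5 or more UMIs of another cell type's list. Cxcl10 was at 18.2 and 66.4 CPM (0.27, 0.17 to 0.42), with 106 of 193 resistant UMIs in 1 cell and a ratio of 0.44 without the highest cells. At least 2 of Ifit1, Ifit3, Isg15 and Rsad2 were seen in sensitive members at 9.26% (4.53 to 16.4) and in resistant members at 3.73% (1.72 to 6.97) thinned to 2000 UMIs.

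Glycolysis genes lay mostly within 1.5-fold between libraries, and some were higher in dividing cells. Of 13 genes, none was past 1.5-fold higher in sensitive members and 1 (Hk2, with 11 and 39 UMIs) was in resistant ones, and its ratio was 0.87 without cells that held 5 or more UMIs of another cell type's list. Ldha, which makes lactate, was at 1562 and 1241 CPM (1.26, 1.19 to 1.33) and was 1.87-fold and 1.80-fold higher in members than in other CD8+ cells. Gapdh was at 460 and 316 CPM (1.46, 1.31 to 1.61) and at a ratio of 1.45 in other CD8+ cells. Of 8 immediate early genes, which respond within minutes to stimulation or to tissue handling, 3 were past 1.5-fold higher in sensitive members (Jun, Junb and Dusp1), and 1 was with at least 3 of the 5 cycle genes. For Dusp1, at 283 and 133 CPM (2.13, 1.85 to 2.46), 133 of 390 sensitive UMIs lay in 1 cell, and without the highest cells its ratio was 1.61, and 1.81 without cells that held 5 or more UMIs of another cell type's list. For Jun, with 139 of 364 sensitive UMIs in 1 cell, the ratio without the highest cells was 1.03, and 1.06 without cells that held 5 or more UMIs of another cell type's list.

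By size alone, outside receptor segments, 1506 genes had an interval that left out 1 and a UMI in at least 10% of the members of the higher library, with 1158 higher in sensitive and 348 in resistant members. With ratios scaled to the median gene ratio these were 601 and 645. The 10 highest in sensitive members included Tesc, Lta, Crip2, Cd9, Itgb7, Birc3, Noct, Atf3 and Pag1. Tesc was at 49.4 and 12.0 CPM (4.10, 2.69 to 6.35), with 18 of 68 sensitive UMIs in 1 cell. Lta, lymphotoxin alpha, was at 50.8 and 13.4 CPM (3.79, 2.53 to 5.76), with 37 of 70 in 1 cell and a ratio of 2.11 without the highest cells. Birc3, an inhibitor of apoptosis, was at 53.01 and 19.95 CPM (2.66, 1.86 to 3.82), Noct at 35.6 and 13.4 CPM (2.65, 1.71 to 4.15) and Pag1 at 29.0 and 11.0 CPM (2.64, 1.62 to 4.34). Of the sensitive UMIs of Crip2, 16 of 41 lay in 1 cell. For Cd9 (2.78) and Atf3 (2.64), 101 of 121 and 86 of 119 sensitive UMIs lay in 1 cell, and without cells that held 5 or more UMIs of another cell type's list the ratios were 0.46 and 0.65.

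The 10 lowest were Gzmc, Klra5, mt-Atp8, mt-Nd3, Cdkn2b, Reps1, Gabbr1, Gzma, Myo1e and Swap70. Klra5, a receptor of the Ly49 family whose genes resemble each other closely, was at 8.71 and 66.4 CPM (0.13, 0.067 to 0.24), seen in 4 and 36 cells, and at a ratio of 0.55 in other CD8+ cells. The mitochondrial genes mt-Atp8 (110 and 520 CPM; 0.21, 0.18 to 0.25) and mt-Nd3 (105 and 400 CPM; 0.26, 0.22 to 0.31) had ratios of 0.20 and 0.24 in other CD8+ cells, in which mitochondrial UMIs made up a median of 2.50% (sensitive) and 5.82% (resistant). Reps1, Gabbr1, Myo1e and Swap70 had 7 to 9 UMIs in sensitive and 43 to 57 in resistant members, and ratios between 0.33 and 0.35.

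T cell receptor segments, which the rule had not used, allow members to be grouped by the receptor they carry. A Trbv segment was seen in 92 of 110 sensitive and 213 of 242 resistant members. Trbv13-2 was the most frequent in members of both libraries, in 22 of 110 (12.98% to 28.7%) and 60 of 242 (19.5% to 30.7%), and was in 23.2% and 20.3% of other CD8+ cells. Sensitive members had Trbv19 in 16.4% (9.996 to 24.6) and resistant members in 19.0% (14.3 to 24.5), and it was in 8.29% (6.85 to 9.92) and 13.8% (12.1 to 15.6) of other CD8+ cells. Trbv4 was in 12.7% (7.14 to 20.4) and 11.2% (7.48 to 15.8) of members and in 4.68% and 7.32% of the others. Segments are found more readily in deeper cells, and members were deeper in both libraries.

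Trbv14 was seen in a smaller share of sensitive members than of other sensitive CD8+ cells. It was found in 6 of 110 sensitive members, or 5.45% (2.03 to 11.5), against 201 of 1303 other CD8+ cells, or 15.4% (13.5 to 17.5). In the resistant library it was seen in 9 of 242 members, or 3.72% (1.71 to 6.94), against 79 of 1489, or 5.31% (4.22 to 6.57). Of the sensitive CD8+ cells with Trbv14, 2.90% (1.07 to 6.20) were dividing, and of those in which it was not seen 8.62% (7.10 to 10.4) were. In the resistant library these shares were 10.2% (4.78 to 18.5) and 14.2% (12.5 to 15.96). With cells thinned to 1000 UMIs, 1 of 205 sensitive cells with Trbv14 was dividing, or 0.488% (0.0123 to 2.69), against 3.46% (2.47 to 4.70) without it. In the resistant library 2 of 71 were, or 2.82% (0.343 to 9.81), against 5.37% (4.28 to 6.64). These intervals overlap in both libraries. Between the libraries, the Trbv14 share of members had a ratio of 1.47 (0.535 to 4.02), which 6 and 9 cells cannot tell from 1, and that of other CD8+ cells a ratio of 2.91 (2.27 to 3.73).

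Among alpha chains, Trav3-3 and Trav13-1 stood at different shares in the libraries. Trav3-3 was seen in 4 of 110 sensitive members, or 3.64% (1.00 to 9.05), and in 46 of 242 resistant members, or 19.0% (14.3 to 24.5), and in 4.22% and 11.1% of other CD8+ cells. Among sensitive members 13.6% (7.84 to 21.5) had Trav13-1, among resistant members 2.89% (1.17 to 5.87), and it was seen in 8.37% and 1.48% of other CD8+ cells. Trav16d-dv11, which has close copies in the genome, was seen in 22.7% and 18.2% of members.

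Members carried many receptor pairs. An alpha and a beta segment, each with at least 2 UMIs and more than any other of its kind, could be named in 46 sensitive and 118 resistant members, which held 33 and 62 distinct pairs. The most frequent pair was Trav13-1 with Trbv4 in 6 of the 46 sensitive members (13.04%) and Trav3-3 with Trbv19 in 14 of the 118 resistant members (11.9%). Trav3-3 with Trbv19 was also the most frequent pair of the other resistant CD8+ cells, in 31 of 430 (7.21%). In other sensitive CD8+ cells it was Trav4-2 with Trbv13-2, in 31 of 352 (8.81%), a pair found in 2 of the 46 members. Cells that share a pair may belong to different clones, since the joining region was not measured.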

How the data were processed

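The authors aligned reads to mm10 with Cell Ranger (6.0.0 for the T cell libraries and 3.0.1 for the whole-tumor libraries, per the file headers) and deposited UMI counts per gene and barcode, without normalization. Each group had 1 library. Groups were taken from the library titles. The whole-tumor library titled resistant names a sensitive tumor in its source field, and whole-tumor libraries held 18 CD8+ cells in all and were not compared here.

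Barcodes, members and other CD8+ cells were chosen as given in the report. Doublets were kept, and removing the highest Scrublet scores (0.8% per 1000 barcodes, 112 sensitive and 159 resistant cells) was an alternative. UMIs were summed over cells and given as CPM, the ratio of 2 CPM values had an exact conditional binomial 95% interval, and a ratio of shares had a log-scale delta-method interval. Genes needed at least 50 UMIs over the members of both libraries, and a call meant more than 1.5-fold. For a count of 0, 3 counts gave the upper limit. Python 3.11.15, numpy 2.4.6, scipy 1.17.1, pandas 2.3.3 and scanpy 1.11.5 were used. The ratio, interval and thinning steps were tested on simulated counts. Those counts had no added spread between cells, so they do not cover UMIs gathered in 1 cell.

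Members, the 20 gene lists and the tests were chosen with earlier results of these data known. Named genes were those of the lists that answer a comparison, the 10 highest and 10 lowest ratios between libraries among genes with a UMI in at least 10% of the members of the higher library and an interval that leaves out 1, with receptor variable segments counted apart, and the 10 genes outside the lists with the highest ratio of members over other CD8+ cells in both libraries. The receptor segments other than Trbv14, and the receptor pairs, were chosen after their values were seen. Alternatives changed thinning depth and seed, the number of cycle genes, the mitochondrial limit, doublets, the Cd8 limit, the denominator, cells with other cell types' markers, the scaling, the fold and the UMI minimum. Values of some genes that these rules name are not reported here.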

Additional observations from a re-analysis of the deposited data

Results flagged for a closer look

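Barcodes above the 10% mitochondrial limit entered the results only under the alternative limit of 20%, which takes those up to 20%. In the resistant T cell library 29 of 859 such CD8+ barcodes, or 3.38% (2.27 to 4.81), had at least 2 of the 5 cycle genes, at a median of 3168 UMIs. In the sensitive library it was 1 of 27.

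For 9 of the 71 genes described with alternatives the ratio of members over other CD8+ cells lay on opposite sides of 1 in the libraries, with both counting intervals clear of 1, as it did for 53 of all 7005 genes (0.757%). The 71 were chosen with such values known, so nothing is read from their share. With 1 library a group, none of these differences was tested. Members were lower in the sensitive and higher in the resistant library for Gzmb (0.317 and 1.24), Prf1 (0.445 and 1.26), Gzmc (0.221 and 1.29), Ccl3 (0.598 and 1.11) and Cxcl10 (0.549 and 3.11). Members were higher in the sensitive and lower in the resistant library for Cdkn1a (1.39 and 0.642), Lta (1.95 and 0.661), Crip2 (1.69 and 0.431) and Cd9 (2.77 and 0.598). Several of these rested on single cells. Without the cell with most UMIs of the gene among members and among other CD8+ cells of each library, both intervals stayed clear of 1 on opposite sides for Gzmb (0.297 and 1.10), Prf1 (0.438 and 1.21) and Cxcl10 (0.457 and 1.67). The values were 1.31 and 0.759 for Gzmc and 1.59 and 0.544 for Crip2, with sensitive intervals that reach 1, and 0.486 and 0.997 for Ccl3, with a resistant interval that reaches 1. They were 1.10 and 0.588 for Cdkn1a and 1.04 and 0.610 for Lta, with sensitive intervals that reach 1, and 0.514 and 0.527 for Cd9, on the same side. With the highest cell left out of members alone, the resistant values of Gzmb (1.02) and Prf1 (1.12) had intervals that reach 1. As a mean over cells of each cell's CPM, Gzmb was at 0.329 and 1.04, Prf1 at 0.610 and 1.10 and Cxcl10 at 0.951 and 2.77. No interval was computed for these means, so their side of 1 is not settled.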

How the results depend on the processing

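No paired analysis was possible because each group had 1 library and the labels carry no replicate numbers, and no library could be left out. The share ratio of 0.572 was below 1 under all 12 alternatives and moved beyond its counting interval with a 5% mitochondrial limit (0.355). Genes past 1.5-fold higher in sensitive members (688) numbered 420 scaled to the median gene ratio, 153 at a fold of 2 and 1208 at 20 UMIs, and those higher in resistant members (291) numbered 452, 92 and 645, and 593 without cells holding any UMI of other cell types' markers. Genes lower in members in both libraries (347) numbered 541 with at least 3 of 5 cycle genes. The replication balance of 1.11 became 1.24 without cells holding 5 or more UMIs of another cell type's list and 1.10 from the mean over cells of the replication share. The Trbv14 ratio of 1.47 ran from 1.39 to 2.20.

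Among 638 alternative values for 71 genes, 549 lay within the counting interval of the reported value, 81 moved beyond it with no called gene crossing 1, and 8 put a called gene on the other side of 1. These were Ccnd1 (0.68 without the highest cell), Rsad2 (0.46 without cells holding any UMI of other cell types' markers), Cd9 (0.46 without those cells, 0.46 without cells holding 5 or more such UMIs, 0.59 without the highest cell) and Atf3 (0.66 with putative doublets removed, 0.65 without cells holding 5 or more such UMIs, 0.96 without the highest cell). The cause was not tested, except that the highest-cell setting removes 1 cell of each library. Of 50 of these genes past 1.5-fold, 9 were no longer past it as a mean over cells and 7 without cells holding 5 or more such UMIs. The settings on 5 or more UMIs and on the highest cell were added after seeing the data. With 110 and 242 members, genes below 50 UMIs and shares of a few cells cannot be told apart.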

Other observations

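Few CD8+ cells were found in whole tumor. The library labelled control held 10 CD8+ cells, of which 1 had at least 2 of the 5 cycle genes, and the library labelled resistant held 8, of which 2 had them. The library labelled sensitive held 0 CD8+ cells among 269 barcodes with at least 200 genes.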
